A study of Mus musculus with 3 samples.

Results

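The genes described here are the mucins Muc1, Muc2, Muc4, Muc5ac, Muc5b, Muc6, Muc13 and Muc20. Their members were taken as every gene spot of the mouse arrays that the files name for one of them, which gave 8 genes with 11 probes of the 31896 genes with 39429 probes measured. Muc2, Muc4 and Muc20 have 2 probes each and the other mucins 1. The tumours are 3 primary diffuse-type gastric cancers, each from a 12-month-old mouse of genotype Atp4b-Cre+;Cdh1loxP/loxP;Trp53loxP/loxP, and each was labelled in red (Cy5) on its own array. The comparison sample, in green (Cy3) on all 3 arrays, was 1 pool of 5 normal gastric mucosae from 12-month-old Atp4b-Cre-;Cdh1loxP/loxP;Trp53loxP/loxP mice. Both floxed alleles are therefore shared by all animals, and the groups differ in the Cre transgene, which is driven by the promoter of a parietal cell gene. Stroma was removed mechanically in 30 mM EDTA-2Na from the mucosae, a step not given for the tumours. The pool is 1 control sample, so differences among normal mice are not measured, and any difference between the dyes is part of every ratio because no array has the opposite dye order.

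Mucins are large proteins with long stretches rich in serine and threonine that carry dense O-linked sugar chains. The gel-forming mucins are secreted from granules and polymerise into mucus, whereas the transmembrane mucins stay on the apical face of epithelial cells. In the stomach Muc5ac is the mucin of the surface (pit) cells and Muc6 that of the neck and deeper gland cells, while Muc2 is the mucin of intestinal goblet cells and Muc5b is known mainly from airways and salivary glands. Muc1, Muc4, Muc13 and Muc20 are transmembrane mucins.

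Each probe is 60 bases long, and the first 30 bases are shown for the mucins on which the results turn and for those with 2 probes, since it is these stretches that the signals measure. Positions are those of the file headers in mm9. No exon or UTR was assigned to them, because no annotation of that build was used here.
Muc5ac, chr7:149004793-149004852, plus strand: ctgaatactgctgctgtcccaaccaaaagg
Muc6, chr7:148819902-148819961, minus strand: agtgcaagaactgaacagcagcaactggtt
Muc2 first probe, chr7:148940000-148940059, plus strand: tgtctccgtcatgaaggagatttcctacaa
Muc2 second probe, chr7:148886795-148887262, plus strand: aatggcatccactctaacatctccgtgtct
Muc4 first probe, chr16:32782278-32782337, plus strand: catggtggccaaatatacagatggatgggt
Muc4 second probe, chr16:32774896-32774955, plus strand: ctaacttgtcatgggtactccagcccaaga
Muc20 first probe, chr16:32786143-32786202, minus strand: gctgacctcttttcagagatgtccctcaca
Muc20 second probe, chr16:32777512-32777571, minus strand: cccagccgctttatttcctgaaataacaac
The second probe of Muc2 spans 468 bases of the genome for its 60 bases. The other probes of single mucins lie at chr7:149058931-149058990 (Muc5b, plus strand), chr3:89034965-89035024 (Muc1, plus strand) and chr16:33819909-33819968 (Muc13, plus strand). Across the 55 pairs of mucin probes the longest run of bases shared by both was at most 9, with a median of 6, so no pair reads the same stretch.

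Signals are given as log2 values after background correction and normalisation, and a log2 ratio is that of tumour over pool on 1 array. A gene was called when its adjusted p (limma, Benjamini-Hochberg over all 19434 genes tested) was under 0.05 and its fitted difference was at least 2-fold. Between 64.0% and 66.8% of gene spots were well above background in red and between 52.5% and 54.2% in green, and no gene spot was saturated. The median SD of the log2 signal over the 3 arrays was 0.22 for the tumours and 0.07 for the pool. Of the targeted genes, Cdh1 had log2 ratios of -4.62, -3.27 and -4.83 and was called lower (adjusted p = 0.00186), while Trp53 had -0.12, -0.12 and -0.38 and was not called (adjusted p = 0.161). Where the probes lie relative to the deleted parts was not examined, so neither gene checks the labels.

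Of the 8 mucins 7 could be tested. The secreted gastric mucins Muc5ac and Muc6 were lower in tumours, by 38.3-fold and 9.21-fold, and the transmembrane mucin Muc4 was 9.47-fold higher. Over the alternatives these sizes ranged from 12.7-fold to 42.9-fold lower for Muc5ac, from 4.11-fold to 10.8-fold lower for Muc6 and from 3.61-fold to 20.6-fold higher for Muc4. The smallest differences of Muc5ac and Muc6 came with median centring, and that of Muc4 with the median of its 2 probes. The other 4, Muc5b, Muc1, Muc13 and Muc20, were not called, and Muc2 did not pass the filter on dim probes. Of all genes tested 19% were called, 9.33% higher and 9.68% lower, against which 3 of 7 mucins were called. The median log2 ratio was -0.39 over the tested mucins and 0.05 over all genes. Tumour and pool signals did not overlap for 4 of 7 mucins, against a background of 62.7% of genes. In this bulk RNA, fewer cells of a type and less RNA per cell cannot be told apart.

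**Figure D1:**
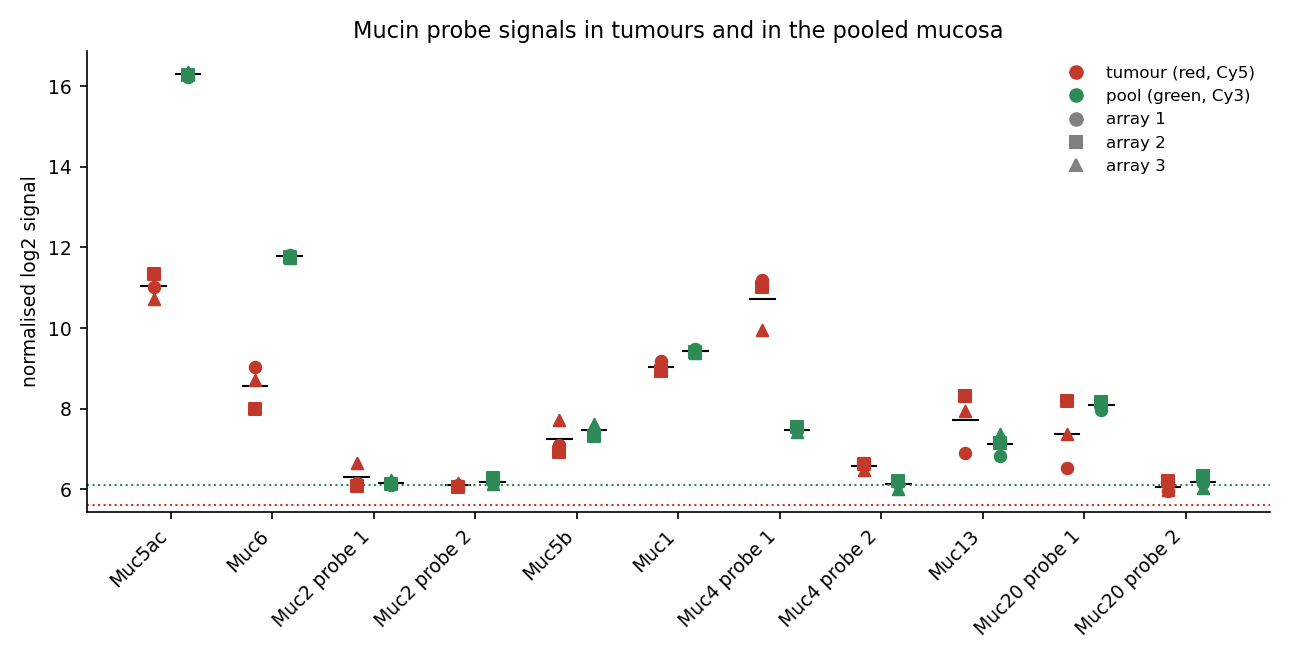
Normalised log2 signal (vertical axis) of each of the 11 mucin probes, in the 3 tumours (red, left of each pair) and in the pool on the same 3 arrays (green, right). Bars are means over the arrays, and dotted lines are the mean over arrays of the lowest signal well above background in each channel. Muc5ac lies near 11 in tumours and 16.3 in the pool, Muc4 probe 1 between 9.95 and 11.20 in tumours and near 7.5 in the pool, and both Muc2 probes lie near the lines in both.

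Among the gel-forming mucins, Muc5ac, the main component of surface gastric mucus, had log2 signals of 11.03, 11.35 and 10.73 in tumours 1, 2 and 3, against 16.24, 16.29 and 16.36 in the pool on the same arrays. Every tumour signal was far below every pool signal, and tumour 2 was the highest of the tumours. Before normalisation the mean spot intensities were 3790, 6125 and 3608 in tumours, against 39567, 36741 and 38893 in the pool. Thus the spot was bright in the pool and still clearly above the local background in all tumours. The log2 ratios were -5.21, -4.94 and -5.63, with a mean of -5.26 ± 0.35 (SD, n = 3), a 95% interval of -5.69 to -4.83 and an adjusted p of 0.000402.

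Muc6, which forms the gland mucin of the stomach, had log2 signals of 9.02, 7.98 and 8.72 in the tumours, against 11.82, 11.78 and 11.74 in the pool. All tumours were below the pool, and tumour 2, which had the highest Muc5ac, had the lowest Muc6. The mean intensities were 744, 520 and 760 in tumours, against 1985, 1935 and 1874 in the pool. The log2 ratios of -2.79, -3.79 and -3.02 averaged -3.20 ± 0.52 (SD, n = 3), with a 95% interval of -3.79 to -2.62 and an adjusted p of 0.00133. Muc5ac had the lower ratio on each array. The difference of their log2 ratios, Muc5ac minus Muc6, was -2.42, -1.14 and -2.61, or -2.06 ± 0.80 (SD, n = 3). Over 3 arrays an exact two-sided sign-flip test gave p = 0.25, the smallest value this design allows, for this and each of 3 such pairs.

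Muc5b, a gel-forming mucin whose gene lies beside Muc5ac, had log2 signals of 7.11, 6.93 and 7.71 in tumours, against 7.43, 7.33 and 7.63 in the pool. The groups overlapped, with tumour 3 above and tumours 1 and 2 below the pool. Its mean log2 ratio was -0.21 ± 0.26 (SD, n = 3), with a 95% interval of -0.56 to 0.14 and an adjusted p of 0.243. Muc6 minus Muc5b was -2.47, -3.40 and -3.11 on the 3 arrays, or -2.99 ± 0.47 (SD, n = 3), with the same smallest exact p of 0.25. The 2 cluster genes Muc5ac and Muc6 were thus called and their neighbour Muc5b was not.

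Muc2 was not tested, because neither of its probes passed the filter of being well above background on all 3 arrays in 1 channel. The first probe had log2 signals of 6.14, 6.08 and 6.65 in tumours, against 6.11, 6.12 and 6.24 in the pool. It was well above background in tumour 3 alone and on no array in the pool. The second probe, with 6.11, 6.06 and 6.16 in tumours against 6.15, 6.28 and 6.13 in the pool, was well above background in neither. Fitted without the filter, the 2 probes had adjusted p values of 0.413 and 0.524 (limma). No fold is drawn from these signals, since both sides were at background in most spots.

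Goblet cell markers other than Muc2 were measured beside it. All those tested also belong to the gene lists described below. As a background, 9.33% of all genes were called higher and 9.68% lower. Of 5 tested markers (Tff3, Fcgbp, Zg16, Clca1 and Spdef), 1 was called higher and 0 lower, with a median log2 ratio of 1.19. Their summed signals were 7178 to 27161 in tumours, against 10538 to 10658 in the pool, so the tumours lay on either side of the pool. The part of these cells in any mucin result was not tested.

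Among the transmembrane mucins, Muc4, which has EGF-like domains and is known to bind the receptor ErbB2, had log2 signals of 11.20, 11.02 and 9.95 at its first probe in the tumours, against 7.46, 7.56 and 7.42 in the pool. Each tumour was above every pool signal, and tumour 3 was the lowest of the tumours. The mean intensities were 3320, 4318 and 1721 in tumours, against 79.1, 82.4 and 78.4 in the pool. The log2 ratios of 3.74, 3.46 and 2.53 averaged 3.24 ± 0.63 (SD, n = 3), with a 95% interval of 2.55 to 3.94 and an adjusted p of 0.00187.

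The second Muc4 probe was dim. It had log2 signals of 6.64, 6.64 and 6.48 in tumours, against 6.15, 6.21 and 6.01 in the pool, where it was well above background on 0 arrays. It passed the filter through the tumours alone, so it adds no separate support for the direction, and its fitted ratio is against a pool at background. The floor of the pool is its lowest signal well above background. With the pool taken at its own signal or its floor, whichever was higher, the tumours were 1.34-fold higher under the reported processing. This is no lower limit, because it depends on that processing. The fitted ratio moved with the processing, to -0.50 with spike-in centring and no loess, where the probe was not called (adjusted p = 0.195). Taken as the median of both probes, the Muc4 ratio was 1.85, which was still called.

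Muc20, a small transmembrane mucin whose gene neighbours Muc4 and which in human cells is known to bind the receptor Met, had log2 signals of 6.53, 8.19 and 7.37 in tumours, against 7.95, 8.16 and 8.17 in the pool. Tumour 1 was far below the pool and tumour 2 was level with it, so the groups overlapped. The mean log2 ratio was -0.73 ± 0.73 (SD, n = 3), with a 95% interval of -1.52 to 0.06 and an adjusted p of 0.107. Without tumour 2 it was -1.11 and was called lower, with an adjusted p of 0.0326 (limma), and without tumour 1 it was -0.38 (adjusted p = 0.291). Its second probe lies between the 2 Muc4 probes on the opposite strand. It had 5.95, 6.19 and 5.99 in tumours, against 6.16, 6.34 and 6.02 in the pool, and was not tested.

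The adjacent Muc4 and Muc20 differed in ratio on each array, by 5.16, 3.42 and 3.33 as Muc4 minus Muc20. The mean of this difference was 3.97 ± 1.03 (SD, n = 3), again with an exact p of 0.25.

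Muc13, a transmembrane mucin with EGF-like domains found on gastrointestinal epithelium, had log2 signals of 6.89, 8.32 and 7.93 in tumours, against 6.83, 7.15 and 7.37 in the pool. Tumours 2 and 3 were above every pool signal and tumour 1 was within the pool's range. The mean log2 ratio of 0.60 ± 0.55 (SD, n = 3) had a 95% interval of -0.01 to 1.22 and an adjusted p of 0.0939. It was called higher with Agilent's processed signals (1.16, adjusted p = 0.0424), in the authors' deposited value table (1.16, adjusted p = 0.0322) and with median centring in place of loess (1.27, adjusted p = 0.0215). The deposited table holds nearly the same ratios as Agilent's processed signals, so those calls are not separate. Under these 3 settings 35.1%, 30.1% and 42.7% of all genes were called, against 19% as reported.

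Muc1, the transmembrane mucin of most simple epithelia, had log2 signals of 9.19, 8.94 and 8.98 in tumours, against 9.48, 9.41 and 9.37 in the pool. Every tumour signal was below every pool signal, by a small margin and only after normalisation. Before it, the mean intensities were 806, 999 and 888 in tumours, against 387, 362 and 355 in the pool. The mean log2 ratio was -0.39 ± 0.08 (SD, n = 3), or 1.31-fold lower, with a 95% interval of -0.63 to -0.14 and an adjusted p of 0.0279. At under 2-fold it was not called. With the adjusted p alone, 4 of 7 mucins passed, Muc1 beside the 3 called, against a background of 47.4% of genes. The ratio of Muc1 turned to 0.70 with median centring, a setting that shifted the median of all genes by 0.72, so that Muc1 lay 0.07 below that median there.

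**Figure D2:**
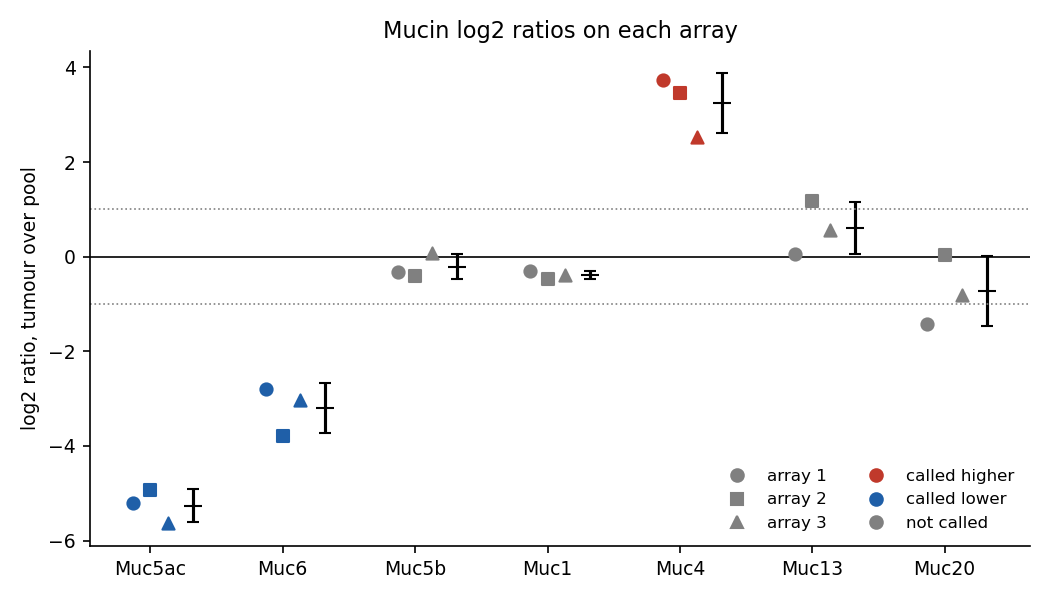
Log2 ratio of tumour over pool (vertical axis) of the 7 tested mucins on each of the 3 arrays, with the mean and SD as bars. Dotted lines mark 2-fold. Muc5ac and Muc6 lie below the lower line on every array and Muc4 above the upper one, while Muc20 spans from -1.42 to 0.04.

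The mucins also differed in how far the tumours spread among themselves. Among the 15569 genes measured above background in tumours and pool on all arrays, the SD of the tumour log2 signal ranked Muc20 highest of the mucins at 0.83, higher than in 95.8% of these genes. Muc13 (0.74), Muc4 (0.67) and Muc6 (0.54) followed, at the 94.2, 92.7 and 87.9 percentiles. Muc5b had 0.41, Muc5ac 0.31 and Muc1 0.13, the last at the 26.1 percentile. Muc13 and Muc20 were both lowest in tumour 1 and highest in tumour 2.

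The genes whose ratios over the 3 arrays were nearest to those of 4 mucins were sought among 11804 other genes, by Euclidean distance. For Muc5ac these were Psca (0.231), Me3 (0.375) and Npw (0.501), for Muc6 Slc35g1 (0.161), Mtfp1 (0.297) and Macrod1 (0.362). Those nearest to Muc1 were Sez6l (0.0316), Gnaz (0.0350) and Calm3 (0.0388), and those nearest to Muc13 were Mapk6 (0.118), Gba2 (0.138) and Tlr12 (0.217). Psca is a surface protein of gastric pit cells and belongs to the pit cell list below. Its log2 ratios were -5.32, -4.77 and -5.53.

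The genome positions set the mucins among other genes. The probes of Muc6, Muc2, Muc5ac and Muc5b lie within 239.089 kb on chromosome 7, and 16 of 18 named neighbours within 250 kb of a probe were tested. Of these, against a background of 19% of all genes called, 1 was called higher, Tspan4 at 2.36 ± 0.31 (SD, n = 3), and 3 were called lower. The 3 were Taldo1 (-1.39 ± 0.55), Pnpla2 (-1.13 ± 0.14) and Chid1 (-1.01 ± 0.30). Taldo1 and Pnpla2 turned positive with median centring and lost their calls with spike-in centring, and Chid1 lost its call without tumour 3. Clone-named genes are left out of all neighbour counts, and of 5 such genes tested here 0 were called. The other 12, none called, were Gatd1, Slc25a22, Pidd1, Rplp2, Efcab4a, Cracr2b, Cd151, Polr2l, Ap2a2, Tollip, Mob2 and Dusp8. Efcab4a and Cracr2b are an older and a current name of 1 gene. Ap2a2, the named neighbour on the Muc6 side, had -0.18, and Tollip, on the Muc5b side, had -0.57. The median neighbour had -0.28.

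The probes of Muc4 and Muc20 lie within 11.307 kb on chromosome 16, a span of probes and not of whole genes. All 5 neighbours tested there, Tfrc, Tnk2, Rubcn, Fyttd1 and Iqcg, were uncalled, with log2 ratios between -0.10 and 0.16, against 3.24 at Muc4. Around Muc13, against a background of 19% of all genes called, 1 of 5 named genes was called, Umps, lower at -1.26. Slc12a8, Heg1, Itgb5 and Kalrn were not called. Of 2 clone-named genes tested there, 1 was called lower. Around Muc1 on chromosome 3, against 9.33% higher and 9.68% lower of all genes, 3 of 27 named genes were called higher. They were Cks1b (1.70), Thbs3 (1.22) and Fam189b (1.19). Another 3 were called lower, Zbtb7b (-1.93), Dpm3 (-1.16) and Fdps (-1.03), and so was 1 of 4 clone-named genes. Umps, Dpm3 and Fdps also turned positive with median centring and lost their calls with spike-in centring. Dpm3 lost its call without tumour 2 or tumour 3, and Fdps without tumour 2. The 21 not called include Ash1l, Rusc1, Pklr, Clk2, Scamp3, Mtx1, Trim46, Krtcap2, Slc50a1, Efna1, Efna3, Efna4, Adam15, Dcst2, Lenep, Flad1, Shc1, Pygo2, Pbxip1 and Pmvk.

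**Figure D3:**
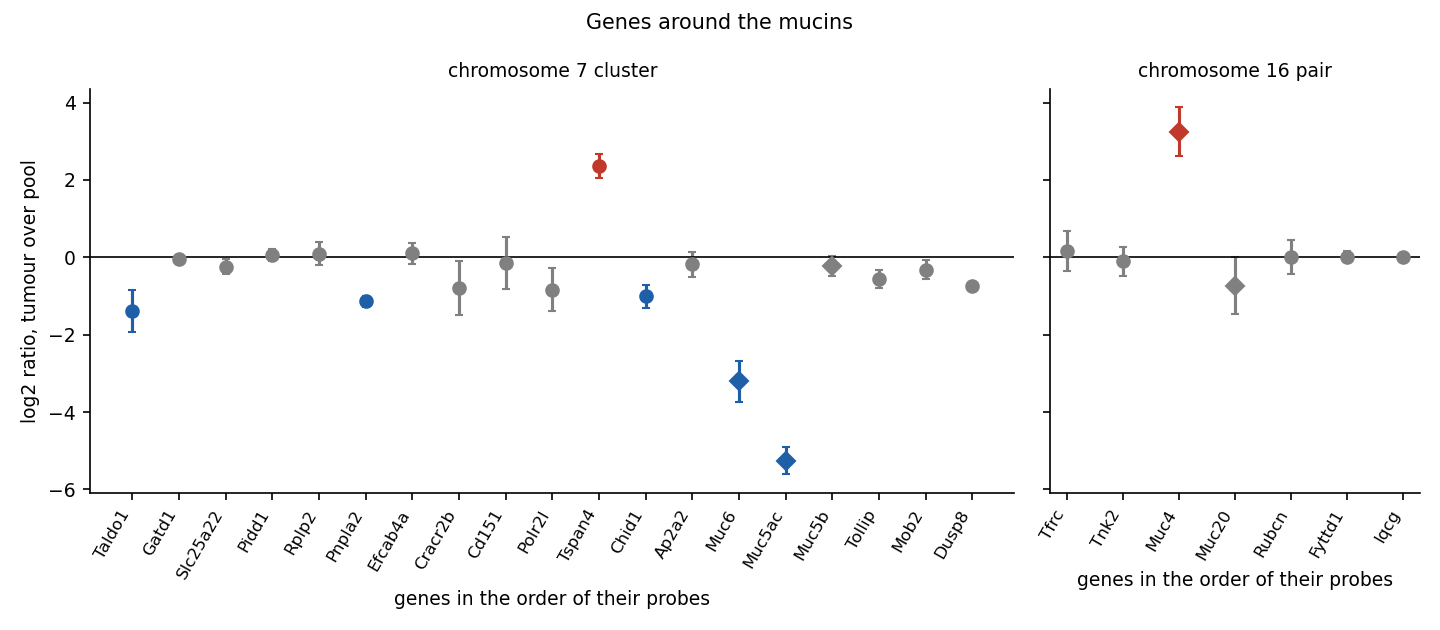
Log2 ratio of tumour over pool (vertical axis; mean and SD over 3 arrays) of the genes around the mucins of chromosomes 7 and 16, in the order of their probes and not to distance. Diamonds are mucins, circles the named neighbours, red called higher, blue called lower and grey not called. Muc4 stands at 3.24 among neighbours between -0.10 and 0.16.

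Promoters were available for 6 of the mucins in a RefSeq table of GRCm38.p6, as 7 start sites, and none for Muc5ac and Muc5b. The 250 bases before the start are shown for Muc6 and Muc4, the called mucins among them, with matched motifs in capitals.
Muc6, GRCm38.p6 chr7:141655394-141655643, minus strand: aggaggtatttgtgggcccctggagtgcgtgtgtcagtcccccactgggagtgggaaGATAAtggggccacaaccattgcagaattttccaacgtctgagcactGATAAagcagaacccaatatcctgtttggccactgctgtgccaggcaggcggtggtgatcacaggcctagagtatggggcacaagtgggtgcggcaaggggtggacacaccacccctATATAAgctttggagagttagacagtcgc
Muc4, GRCm38.p6 chr16:32735636-32735885, plus strand: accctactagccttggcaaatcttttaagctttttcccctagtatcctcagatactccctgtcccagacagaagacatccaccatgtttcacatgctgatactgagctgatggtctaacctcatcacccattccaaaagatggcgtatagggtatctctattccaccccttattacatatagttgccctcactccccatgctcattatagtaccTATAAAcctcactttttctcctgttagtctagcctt
The motifs searched on both strands, chosen after the sequences were seen, were the TATA-like TATAAA and its variant ATATAA, which can overlap, the GATA core GATAA, and the GC box core GGGCGG. Muc6 has ATATAA starting 29 bases before its start and GATAA at 193 and 146 bases before it. Muc4 has TATAAA at 36 bases before its start and no GATAA. Of 32851 promoters 12.4% hold TATAAA, 9.10% ATATAA, 22.6% GATAA and 32.7% GGGCGG, and the 7 mucin promoters hold them in 3, 2, 2 and 2 cases. These matches are letters in a window and show no binding.

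Genes that work with the mucins were followed in lists, which are described by counts. Across the 6 lists, 8 of 103 genes tested were called higher (7.77%) and 32 lower (31.1%), against 9.33% and 9.68% of all genes. With median centring the counts were 38 and 13, against 39.9% and 2.86% of all genes. Among other mucins and mucin-like proteins, 3 of 10 tested were called higher and 2 lower, with a median log2 ratio of 0.37. The 3 higher were Muc3, an intestinal transmembrane mucin (adjusted p = 0.0400), Cd34 (1.85 ± 0.69), and Spn, the leukocyte sialomucin CD43 (1.21 ± 0.19). In the pool Muc3 was well above background on 1 of 3 arrays, so its size is poorly set: the fitted log2 ratio was 1.94 ± 1.34 as reported, 3.58 at an offset of 0 and 3.49 from Agilent's processed signals. It had log2 ratios of 0.42, 2.98 and 2.42 on the arrays and lost its call without tumour 2 (adjusted p = 0.126), without tumour 3 (0.169) and without the filter on dim probes (0.0718). Mucl3 (-4.30 ± 1.11) and Cd24a (-2.36 ± 0.46), a small mucin-like surface protein, were lower.

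Partners of the mucus granule, such as trefoil peptides and gastrokines, had 1 of 16 called higher and 6 lower, with a median of -0.42. Fcgbp, a goblet cell product that links to mucus, was higher at 2.31 ± 1.01 (adjusted p = 0.0124). The gastrokines Gkn2 (-5.85 ± 1.70) and Gkn1 (-4.13 ± 0.96) and the trefoil factor Tff1 (-3.52 ± 0.75) were lower, as were Tff2 (-2.69), Agr2 (-1.71) and Creb3l1 (-1.68). Tff3, the intestinal trefoil factor, had 0.79 ± 2.23 and was not called.

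Enzymes that build O-linked chains had 0 of 25 called higher and 8 lower, with a median of -0.67. B4galnt2 (-4.08 ± 1.56), Galnt6 (-2.53 ± 0.73) and A4gnt were among those called lower. A4gnt makes the alpha-linked N-acetylglucosamine cap typical of gland mucin. It was well above background in 1 tumour only, and its fitted ratio was -2.15 as reported, -3.99 with an offset of 0 and -5.77 with Agilent's processed signals, so it has no place in the order. The other 5 called lower were C1galt1c1, the chaperone of the core enzyme, Gcnt3, Fut2, St6galnac2 and B4galnt3. Like A4gnt, B4galnt3 was well above background in 1 tumour only, so its fitted ratio is no measured fold. B4galnt2 lost its call without tumour 3 (adjusted p = 0.0563).

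Genes of granule docking and release had 0 of 17 called higher and 7 lower, with a median of -0.42. Sytl4 (-3.14 ± 0.40), Rab27b (-2.75 ± 0.20) and Sytl2 (-2.36 ± 0.09), a small GTPase and effectors that dock secretory granules, were lowest. Rab27a, Rab3d, Unc13b and Stxbp2 were also lower.

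Partners of membrane mucins had 4 of 17 called higher and 1 lower, with a median of 0.11. Those higher were Mmp14 (2.30 ± 0.40), a membrane metalloproteinase that sheds MUC1 in human cells, the galectins Lgals3 (2.02 ± 0.40) and Lgals1 (1.48), and the receptor Egfr (1.62 ± 0.25). Erbb2, a known partner of Muc4, had 0.07 ± 0.56, and Met, a known partner of human MUC20, had -0.24 ± 0.16, and neither was called. Ezr, which links apical membrane proteins to actin, was lower at -2.42 ± 0.11.

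Transcription factors linked to mucin genes or to the cells that make mucins, general ones such as Stat3, Rela and Hif1a included, had 0 of 18 called higher and 8 lower, with a median of -0.79. Klf4 (-2.85 ± 0.32), Foxa3 (-2.58 ± 0.29) and Gata4 (-1.89 ± 0.60) were the lowest, and Foxa2, Gata6, Foxq1 and Foxa1 were among the others called lower. The factors not called include Spdef (-1.29), Sox2 (0.53) and the intestinal Cdx2. In the pool Cdx2 was well above background on 0 arrays, and it passed the filter through the tumours alone, so its fitted ratio is no measured fold. Its log2 ratios were 0.59, 0.55 and 1.94, with a mean of 1.03 ± 0.79 (SD, n = 3) and an adjusted p of 0.0559 (limma).

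**Figure D4:**
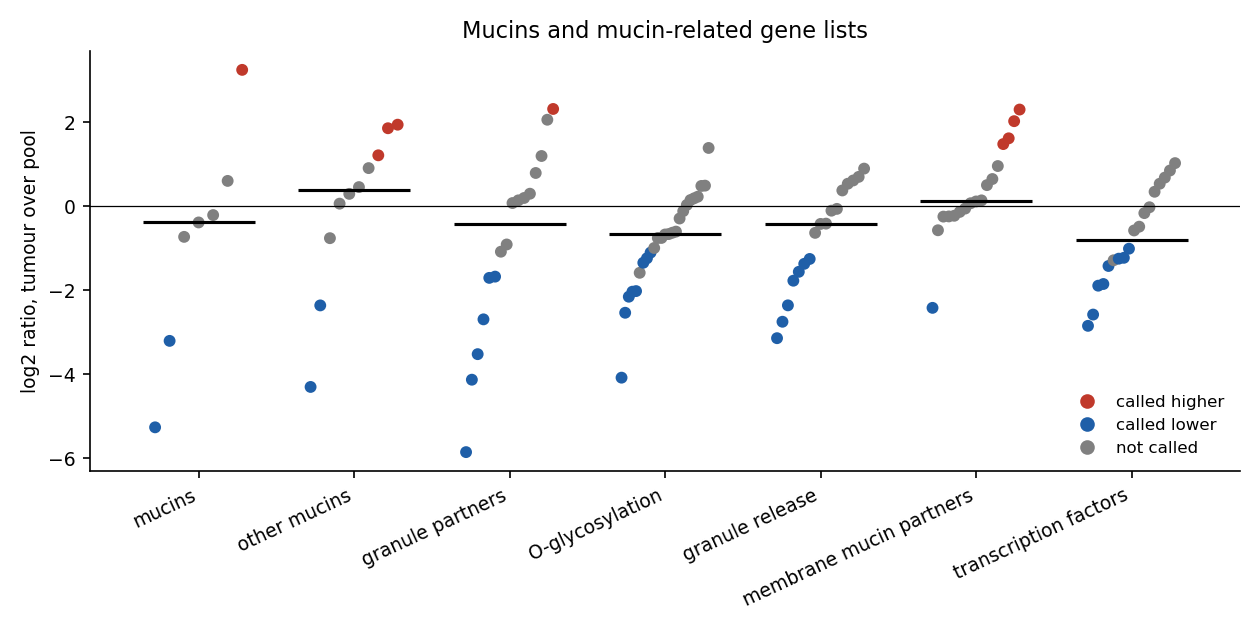
Log2 ratio of tumour over pool (vertical axis) of every tested gene in the mucins and in 6 lists of related genes, sorted within each list, with the list's median as a bar. Red marks genes called higher, blue lower and grey not called. The O-glycosylation, granule release and transcription factor lists hold no gene called higher.

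Markers of stomach cells were set beside the gastric mucins. Gkn1, Gkn2, Tff1, Foxq1, Tff2, Gkn3 and A4gnt also belong to the lists above, so their values here are the same measurements. As a background, 9.33% of all genes were called higher and 9.68% lower. All 6 tested pit cell markers were called lower, with a median log2 ratio of -3.82, alongside Muc5ac. Their summed signals were 42624 to 79747 in tumours, against 1003477 to 1339968 in the pool, and all 6 were well above background on all arrays in both. Of 5 neck cell markers, set beside Muc6, Tff2 and A4gnt were lower, Aqp5 was higher and Gkn3 and Cftr were not called, with a median of -0.07. Their summed signals were 21209 to 61214 in tumours, against 122281 to 144693 in the pool. All 5 chief cell markers (median -4.92) and all 5 parietal cell markers (median -6.61) were called lower as well. Only 3 of the parietal markers were well above background in all tumours. Esrrg was so in 2 tumours and Slc26a7 in 0, so the fitted ratio of Slc26a7 is no measured fold. The part of these cells in the mucin differences was not tested.

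Markers of other cells were also set beside Muc4, with 9.33% of all genes called higher and 9.68% lower as the background. The endothelial marker Emcn is also in the list of other mucins. Of 6 squamous markers 3 were higher (Ivl, Lor and Krt14) and the median was 1.13, with summed signals of 4483 to 7595 in tumours, against 2922 to 3084 in the pool. Of 5 duct markers 2 were higher, Krt7 at 3.93 among them, and 1 was lower, with a median of 0.13. The general epithelial markers included 2 higher of 6, Cldn7 (3.94) and Epcam (1.20), and 2 lower, Krt8 (-1.56) and Cdh1 (-4.24). Cdh1 is itself a targeted gene here, so its ratio is no marker of epithelial cells in these tumours. Stromal and immune lists differed too: 5 of 6 fibroblast markers (median 2.78), 4 of 5 macrophage markers (2.21) and 4 of 5 B cell markers (2.78) were higher, and 1 of 5 endothelial markers (0.25). The 5 pancreatic acinar markers had 3 lower and a median of -1.02. One of those lower, Pnlip, was well above background in 0 tumours, so its fitted ratio is no measured fold. The part of any of these in the Muc4 difference was not tested.

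Shares of all genes called under the remaining alternatives give the background for those calls. An offset of 0 called 29.6% of genes, spike-in centring 28.4%, loess centred on the tested genes 19%, the filter in both channels 21%, no filter 11.1% and the median of a gene's probes 17.7%. Without replicates 1, 2 and 3 in turn, 18.6%, 17.7% and 17.9% of genes were called. Over probes in place of genes 17.6% were called, and 3 of the 8 mucin probes that passed the filter. Under each alternative, calls were followed gene by gene for up to 3 members called in each direction per list. Among those, Spn (0.75) and Egfr (0.65) lost their calls when the median of a gene's probes was taken. Cd24a (-0.74), Ezr (-0.88) and Gata4 (-0.69) lost theirs with median centring. Further list genes named above lost calls there as well. Transcription factors called lower fell from 8 to 2 and granule partners from 6 to 3. O-glycosylation genes fell from 8 to 4 and granule release genes from 7 to 3.

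**Figure D5:**
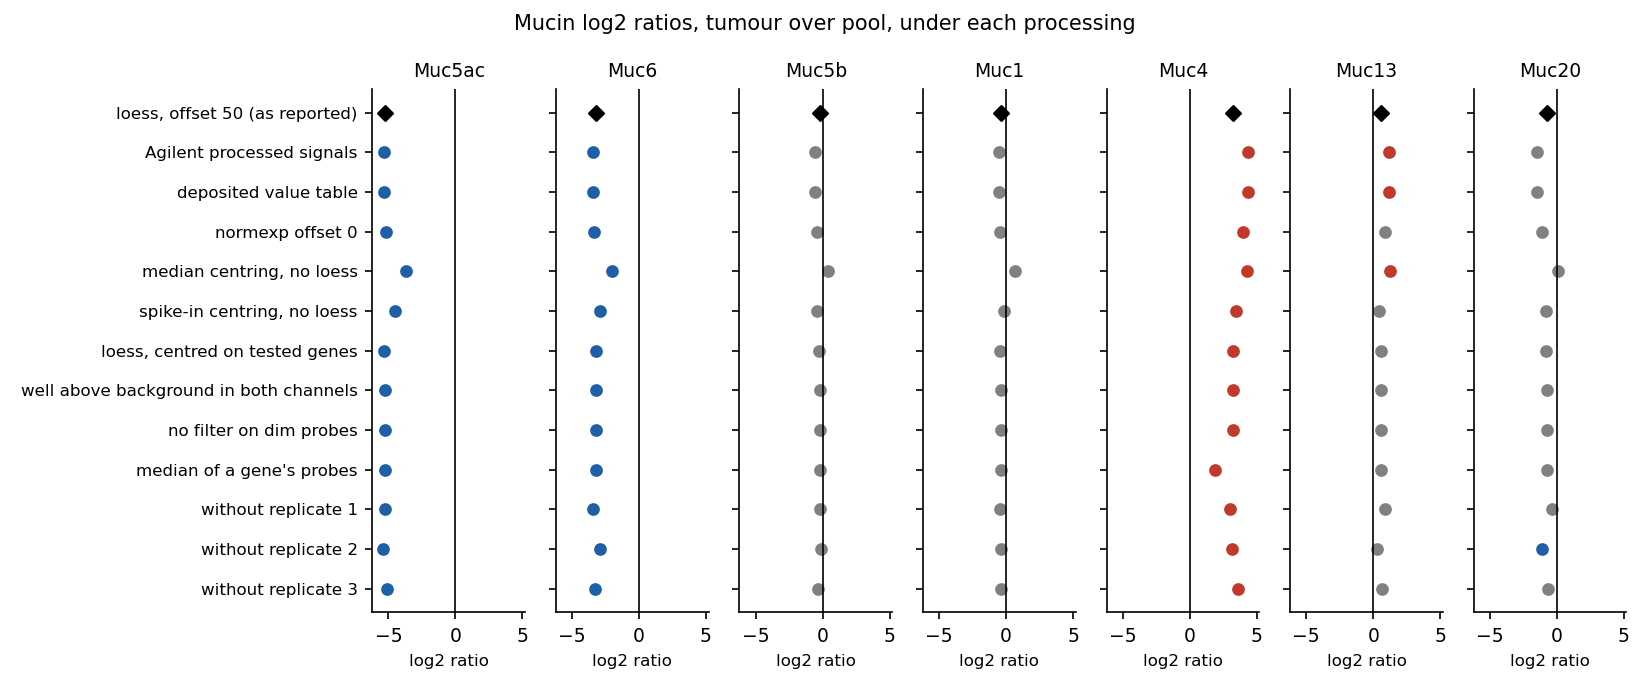
Log2 ratio of tumour over pool (horizontal axis) of the 7 tested mucins under the reported processing (black diamond) and 12 alternatives (circles, red called higher, blue called lower, grey not called). Muc5ac and Muc6 were called lower and Muc4 higher under all 12. Muc13 was called under 3 and Muc20 under 1, and Muc5b, Muc1 and Muc20 crossed 0 with median centring. The deposited value table and Agilent's processed signals hold nearly the same ratios.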

How the data were processed

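Each array's scanner file holds intensity values deposited by the authors, of which the mean red and green spot signals and the median of the background around each spot were used. Agilent Feature Extraction made them (10.7.3.1 per the file headers, 9.5.3 per the submitters' processing notes). A value table deposited by the authors gives the tumour over pool log2 ratio of each probe. For 99.8 to 99.9% of its filled cells the value lay within 0.01 of the scanner's log10 ratio, deposited by the authors, once that was put on the log2 scale, so no further centring was applied. Its medians were -0.15, -0.13 and -0.11, and 48.3 to 49.6% of cells are blank for a reason the sources used here do not give. Mucins were taken by the gene name in the files. For all genes, 26055 of 39429 probes got a current name through a RefSeq accession (GRCm38.p6, used for names only).

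Background was corrected with normexp (offset 50), followed by loess within each array in which control spots had weight 0 (limma 3.58.1, R 4.3.3). Channel signals were then scaled between arrays with Aquantile. The filter kept 24164 probes, those well above background throughout the red channel or throughout the green channel. The brightest of a gene's kept probes stood for the gene. The ratio against 0 was fitted by lmFit and eBayes (two-sided, Benjamini-Hochberg over genes), a procedure first tested on simulated data. All arrays were on 1 slide scanned once. The labels call the tumours biological replicates.

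The mucins, the gene lists and the markers were chosen with earlier results of these data known. The genes named are all mucins, up to 3 called in each direction per list, the 3 nearest to each of 4 mucins, and the tested neighbours within 250 kb, except for items not reported here. Other list genes and markers were named after their values were seen. The alternatives were Agilent's processed signals, the deposited table, an offset of 0, 3 other centrings, 2 other filters, the median of a gene's probes and each replicate left out. The offset pulls ratios of dim probes towards 0.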

Additional observations from a re-analysis of the deposited data

Results flagged for a closer look

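Muc2, at its first probe, had a red log2 signal of 6.65 in tumour 3 and was well above background there, against 6.08 and 6.14 in tumours 2 and 1 and at most 6.24 in the pool, where it was never well above background. The probe is outside the tested set, so this signal entered no comparison. It rests on 1 tumour and 1 of the 2 Muc2 probes.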

How the results depend on the processing

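Under the 12 alternatives, Muc5ac ratios lay between -5.42 and -3.66, Muc6 between -3.44 and -2.04 and Muc4 between 1.85 and 4.37, each called throughout. Mucin genes called higher numbered 1 as reported and 2 with Agilent's processed signals, the deposited table and median centring, Muc13 being added. Agilent's processed signals and the deposited table hold nearly the same ratios. Mucin probes called higher numbered 2 with the deposited table, an offset of 0 and median centring, and 3 from Agilent's processed signals. List genes called higher numbered 16 at an offset of 0, 15 from Agilent's processed signals, 38 with median centring and 14 with spike-in centring, and 13 were called lower with median centring. With each replicate left out, the mucins called were 1 higher and 2 to 3 lower, as genes and as probes, and the list genes 7 to 11 higher and 28 to 36 lower. Among the genes followed singly, calls were lost without a replicate for Muc3, B4galnt2, Chid1, Fdps and Dpm3, and Muc20 gained one without replicate 2. Other list genes lost calls too, since granule partners called lower numbered 6 as reported and 5 without replicate 1 or replicate 2. Median centring reversed Muc5b (0.42), Muc1 (0.70), Muc20 (0.062), Calm3 (0.95), Taldo1 (0.27), Pnpla2 (0.090), Umps (0.033), Fdps (0.30) and Dpm3 (0.29), and spike-in centring reversed Calm3 (0.10) and the fitted value of the second Muc4 probe (-0.50). The median of all genes was shifted by 0.72 with median centring, by -0.15 in the deposited table and by -0.13 with spike-in centring. Genes called were 1814 higher and 1882 lower as reported, against 7747 and 556 with median centring, 3738 and 3079 from Agilent's processed signals, 3192 and 2551 at an offset of 0, 2025 and 2883 in the deposited table, and 2795 and 2726 with spike-in centring. The cause of these shifts was not tested. No paired analysis was possible because the labels give 1 group, and the pool is the second channel of each array. The pool was not well above background on any array at the Muc2 probes and at the second probes of Muc4 and Muc20, so signal over background limits these, and fitted ratios there are no measured folds.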
